A study of Mus musculus with 8 samples.

Results

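Fatty acids and cholesterol are built by enzymes that act in series, and 37 genes of these pathways were followed in interscapular brown adipose tissue (BAT) of mice. The members were chosen by gene symbol for their roles in making palmitate, in desaturating and elongating fatty acids, in making cholesterol, and in regulating these steps. All 37 were among the 33641 genes in the deposited files. The libraries come from a study of HuR, an RNA-binding protein encoded by *Elavl1*, in which floxed HuR alleles were deleted in adipocytes with a Cre driven by the adiponectin promoter (*Adipo-HuR-/-*). Poly(A) RNA was sequenced from BAT of 8 C57BL/6 mice aged 28 weeks, 3 labelled wild-type (A7, A8 and A12, here control) and 5 labelled as knockouts (A24, A25, A26, A29 and A31). By the methods of the study, littermates served as controls and could be wild-type with Cre, or carry 1 or 2 floxed alleles without Cre. The Cre acts in white and brown adipocytes alike, and other cells of the tissue keep HuR. The legend of the study gives the group sizes the other way round, so the groups here follow the labels.

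Palmitate is made in the cytosol from citrate and acetate by way of acetyl-CoA and malonyl-CoA, and is then elongated and desaturated at the endoplasmic reticulum. Cholesterol is made from acetyl-CoA through mevalonate, squalene and lanosterol. Both pathways are switched on by SREBP transcription factors, which are held at the endoplasmic reticulum by INSIG proteins when sterols are plentiful, and fatty acid synthesis in brown fat also responds to insulin, carbohydrate and cold.

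The control libraries A7, A8 and A12 held 60622522, 51751002 and 50673814 estimated counts. The others held 18264754 (A24), 17558090 (A25), 67498055 (A26), 50893173 (A29) and 58727739 (A31). A24 and A25, both labelled *Adipo-HuR-/-*, thus had the fewest counts. Levels are given in CPM, counts brought to a common library size by TMM normalization, which sets the scale from the majority of genes. By total counts alone, without the TMM factors, a floor of 3 counts corresponded to 0.0444 CPM in A26 and 0.171 CPM in A25. This floor covers counting error only, since reads are not independent molecules after amplification. Every member passed edgeR's filter on low counts and was tested, together with 14851 genes in all.

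*Elavl1* did not separate the labels. Its total was 50.6, 48.0 and 49.2 CPM in A7, A8 and A12. The knockout-labelled libraries gave 61.9, 47.2, 43.4, 61.3 and 61.1 CPM in A24, A25, A26, A29 and A31. The groups overlapped, and the log2 fold change was 0.16 (standard error, SE, 0.162, adjusted p = 0.667 by edgeR's quasi-likelihood test, Benjamini-Hochberg). Every direction below therefore rests on the labels. The study examined HuR protein of both genotypes by Western blot, including in BAT, whereas the totals here are RNA of whole tissue. All 12 genes of the brown adipocyte list were detected in every library, with a summed level from 17189 CPM (A25) to 37392 CPM (A8). The list also holds general adipocyte genes, such as *Adipoq*, *Plin1* and *Fabp4*, the most abundant. Its sum therefore does not measure brown identity alone. Fewer cells of a type and less RNA per cell cannot be told apart in bulk tissue.

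Markers of skeletal muscle varied far more between the libraries than those of brown adipocytes. Summed over 16 genes, they had 3522, 2374 and 12.9 CPM in A7, A8 and A12, the control libraries. The other label gave 19.1, 13.8, 31.7, 10.5 and 394 CPM in A24, A25, A26, A29 and A31. A7 and A8 thus stood apart, and A31 lay between them and the other 5. *Myh4* was the most abundant of the list, and it was listed at 0 in A25, A26 and A29. By the fitted fold change all 16 muscle genes were lower under the knockout label, and 1 of them (*Myh7*) was past the threshold. Of the 16, 9 were at 0 in at least 1 library, namely *Myh1*, *Myh2*, *Myh4*, *Myh7*, *Tnnt3*, *Tnni2*, *Tnnc2*, *Actn3* and *Tcap*. The part of muscle RNA in the members' differences was not tested beyond a fit with a muscle score as a covariate, whose values are given with the members below.

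The comparison between the labels asks which of these genes depend on HuR in adipocytes. The threshold was an adjusted p of 0.05 or less together with a fold change of 1.5 or more. Of the 37 members, 1 was past it, *Scd1*, which was lower under the knockout label. Of all genes tested 105 were past it (0.707%), 69 of them lower (0.465%) and 36 higher. Scaled by total counts alone, 121 genes were past the threshold, 25 lower and 96 higher, and *Scd1* was again the only member. By log2 fold change 26 members were lower and 11 higher, with a median of −0.30, whereas the genes tested were divided into 7413 lower and 7438 higher, with a median of 0.00. With total counts only 19 of the 37 members were lower, and 27.8% of all genes tested. This scaling moved the median of all genes to 0.23 and that of the members to −0.09, a difference between the medians of −0.32 against −0.30 with TMM.

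The size of this lean towards lower values depended on the control library A7. Without A7, 21 of the 37 members were lower and their median was −0.02. With the muscle score as a covariate 22 members were lower, with a median of −0.09. Several lists of cell markers other than muscle also had medians away from 0 in the fit with all libraries. They were −0.32 for fibroblasts (6 of 6 genes lower) and −0.36 for erythroid cells (5 of 5 lower). White adipocytes had 0.59 (2 of 5 lower, and 3 of 5 at an unadjusted p under 0.05). Macrophages and lymphocytes had 0.33 (4 of 9 lower), and vessels (0.07) and Schwann cells (0.01) were close to 0. These medians also moved with single libraries. Fibroblasts had −0.01 (3 of 6 lower) without A12, and macrophages and lymphocytes 0.08 without A31. White adipocytes had 0.24 without A7 and 1.18 without A12, and erythroid cells −0.18 without A26 and −0.63 without A24. The brown adipocyte list, with its general adipocyte genes, had −0.16 (9 of 12 lower), which became 0.10 (2 of 12 lower) with total counts only. It was 0.15 (4 of 12 lower) without A8 and −0.35 (10 of 12 lower) without A7. At an unadjusted p under 0.05 there were 7 lower members, *Scd1*, *Lss*, *Insig1*, *Idi1*, *Hmgcs1*, *Nsdhl* and *Cyp51*, where 9.41% of all genes tested were called lower. *Elovl1* was the 1 higher member, where 7.64% of all genes were called higher. The groups did not overlap for 3 lower members (*Scd1*, *Insig1* and *Lss*) and for 1 higher member (*Elovl1*), against 6.09% and 5.37% of all genes tested. For 30 of the 37 members (81.1%) the highest control library exceeded the lowest by a larger ratio than the groups differed by, about the same share as among all genes tested (82.4%).

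**Figure D1:**
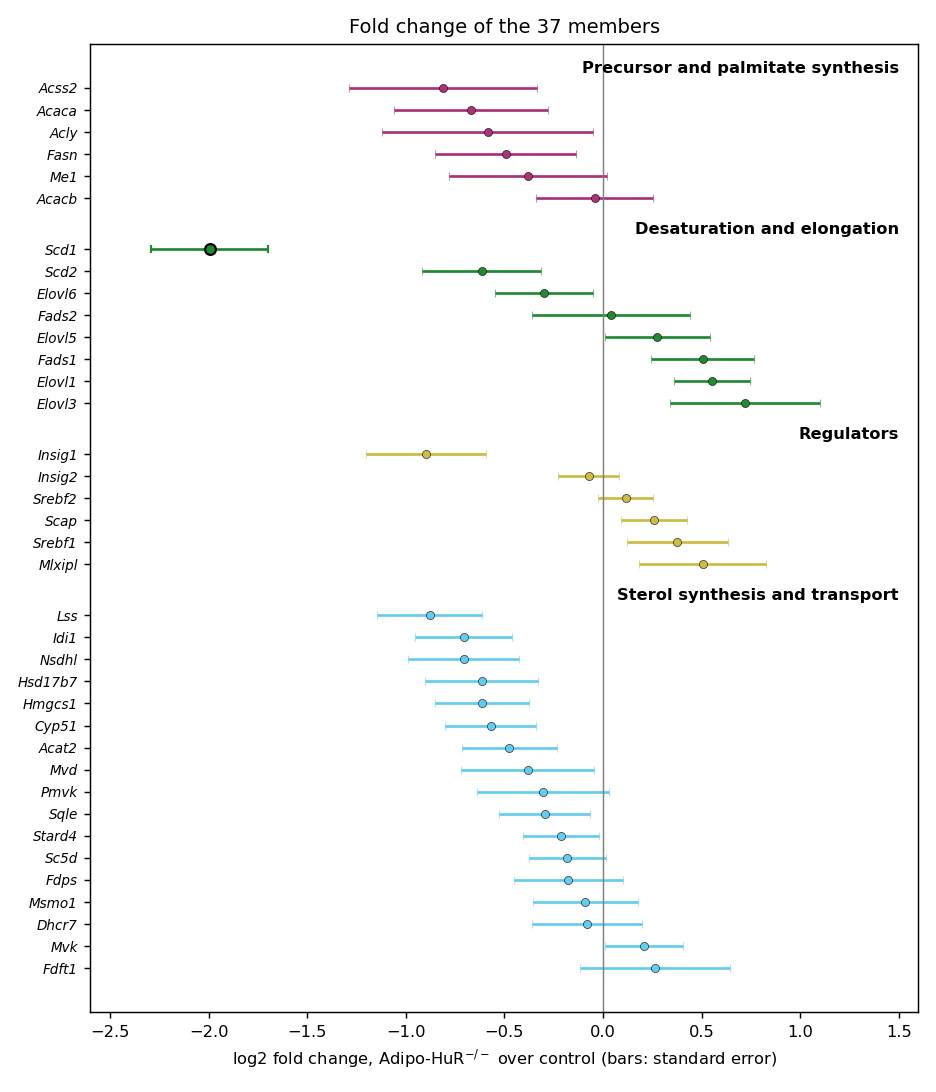
Log2 fold change of each of the 37 members, libraries labelled *Adipo-HuR-/-* (n = 5) over control (n = 3), by role, with bars for the standard error from edgeR's quasi-likelihood test and a black outline for the member past the threshold. *Scd1* lies at −1.99 and the other 36 members between −0.90 and 0.72.

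*Scd1* encodes the stearoyl-CoA desaturase that places a double bond in palmitate and stearate, and lies on the minus strand at chr19:44394455-44407879 (GRCm38). Its level was 95441, 49264 and 78987 CPM in A7, A8 and A12. The knockout-labelled libraries gave 18791, 20690, 15593, 24134 and 14327 CPM in A24, A25, A26, A29 and A31. The groups were far apart, the lowest control library being above every library of the other label. The mean ± SD fell from 74564 ± 23404 CPM in control (n = 3) to 18707 ± 3946 in the other group (n = 5), a log2 fold change of −1.99 (SE 0.296, adjusted p = 0.0253 by edgeR's quasi-likelihood test, Benjamini-Hochberg). *Scd1* was the most abundant of the 105 genes past the threshold by mean CPM, ahead of *Dlst* with 703 CPM, while it was the 20th in size of fall and the 25th by adjusted p.

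*Scd1* took a larger share of the counts in each control library than in any library of the other label. *Scd1* alone held 9.73% of all counts in A7, 3.76% in A8 and 7.46% in A12. Under the other label its share ran from 1.56% in A26 and 1.61% in A31 through 1.82% in A24 to 2.48% in A25 and 2.50% in A29. It had the highest count of all genes in A7 and A12 and was the 4th in A8, whereas it ranked between the 3rd (A25) and the 11th (A26) in the other group. All 37 members together took 15.5% of the counts in A7, 5.99% in A8 and 9.71% in A12, against 3.55% (A31) to 6.43% (A25) in the libraries labelled *Adipo-HuR-/-*. The groups overlapped for this sum through A8 and A25.

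The size of the fall of *Scd1* was steadier than its call. Left out in turn, the libraries gave log2 fold changes from −2.22 to −1.78, and the call was kept without A8, A12 or A24. It was lost without A7 (−1.78, adjusted p = 0.0827), A25 (−2.03, adjusted p = 0.0840), A26 (−1.93, adjusted p = 0.0767), A29 (−2.10, adjusted p = 0.0581) or A31 (−1.91, adjusted p = 0.0561), by edgeR's quasi-likelihood test and Benjamini-Hochberg adjustment. In these fits few genes of any kind were past the threshold, from 10 without A26 to 17 without A31. With the muscle score as a covariate the log2 fold change was −2.17 (adjusted p = 0.141), and without A24 and A25 it was −2.05 (adjusted p = 0.147). *Scd1* has 1 annotated transcript, of which 20.5% of the 31-base words also occur in other transcripts, 5.26% in *Scd2*, 5.92% in *Scd3* and 3.46% in *Scd4*. The effect of these shared words on its count was not tested.

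**Figure D2:**
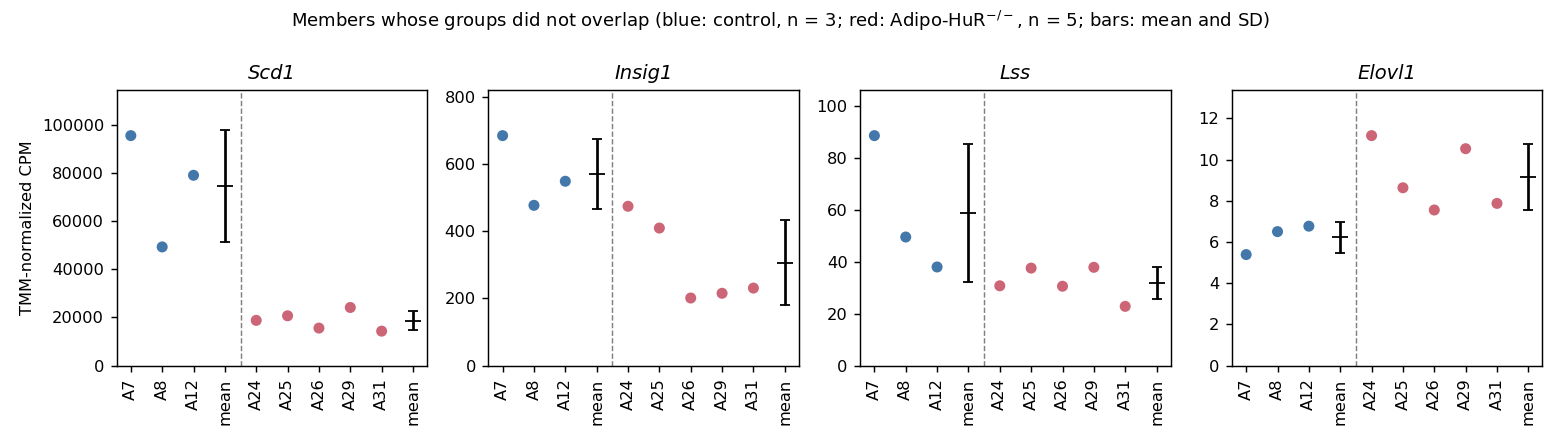
TMM-normalized CPM of the 4 members whose groups did not overlap, each point a library, with bars for the mean and SD of control (n = 3) and *Adipo-HuR-/-* (n = 5). *Scd1*, *Insig1* and *Lss* were lower in every library labelled *Adipo-HuR-/-* than in any control library, and *Elovl1* was higher.

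None of the other desaturases and elongases was past the threshold. *Scd2*, a second stearoyl-CoA desaturase 87591 bases away, had a log2 fold change of −0.62 (SE 0.301), and *Elovl6*, which elongates palmitate to stearate, one of −0.30 (SE 0.248), both with overlapping groups. In the fits without 1 library *Scd2* ran from −0.80 to −0.19 and *Elovl6* from −0.45 to −0.02. The remaining 5 members of the list were higher, from 0.04 for *Fads2* to 0.72 for *Elovl3*, an elongase of saturated very long chains known for its induction in brown fat, which ran from 0.37 to 0.94 without 1 library. *Elovl1*, which elongates saturated chains further, had 5.39, 6.51 and 6.77 CPM in A7, A8 and A12. It had 11.2, 8.63, 7.55, 10.5 and 7.87 CPM in A24, A25, A26, A29 and A31. Every library labelled *Adipo-HuR-/-* was above A12, the highest control, and the log2 fold change was 0.55 (SE 0.193, adjusted p = 0.179 by edgeR's quasi-likelihood test, Benjamini-Hochberg). *Fads1* and *Fads2*, desaturases of polyunsaturated chains, had at most 14.2 and 4.55 CPM in any library, and *Fads2* changed sign in 4 of the 8 fits without 1 library, from −0.23 to 0.62.

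Compared per length, as TPM (counts divided by transcript length and scaled to a common total), *Scd1* was above every other desaturase and elongase in each library, from 4526 to 32760 TPM. *Elovl3* followed with 302 ± 118 TPM (SD, n = 3) in control and 590 ± 175 TPM (SD, n = 5) in the other group. *Elovl6* had 289 ± 170 TPM (SD, n = 3) and 251 ± 62.7 TPM (SD, n = 5), and its order relative to *Elovl3* and *Scd2* differed between libraries. *Scd2* averaged 107 TPM over the 8 libraries and *Elovl5* 50.9 TPM. The lowest were *Elovl1* with 8.50 TPM, *Fads1* with 4.17 and *Fads2* with 1.29. The share of *Scd1* in the summed counts of *Scd1* and *Scd2* was 99.3% ± 0.195 (SD, n = 3) in control and 98.2% ± 0.196 (SD, n = 5) in the other group, without overlap. The two-sided exact permutation p of this share was 0.0357, the smallest that 56 assignments of 3 and 5 libraries can give, and it was 0.214 after adjustment over the 6 shares compared.

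Of the genes that supply acetyl-CoA and reducing power and make palmitate, all 6 had a log2 fold change below 0 with TMM, from −0.81 for *Acss2* to −0.04 for *Acacb*, and *Acacb* had 0.16 with total counts only. With all libraries none of the 6 was past the threshold or reached an unadjusted p of 0.05, whether by the quasi-likelihood or likelihood ratio test of edgeR, DESeq2's Wald test or limma voom. *Fasn*, the multienzyme that assembles palmitate, had 33346, 16572 and 14337 CPM in A7, A8 and A12. The other label gave 10904, 19853, 18763, 16883 and 9676 CPM in A24, A25, A26, A29 and A31. A7 was high on its own, and A25, A26 and A29 exceeded both A8 and A12. The log2 fold change of *Fasn* was −0.49 (SE 0.357, adjusted p = 0.530 by edgeR's quasi-likelihood test, Benjamini-Hochberg), and it was −0.02 without A7.

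*Acly*, ATP citrate lyase, opens the pathway by splitting citrate. It had 6835, 2988 and 1229 CPM in A7, A8 and A12, and thus varied 5.56-fold among the controls. The other label gave 2193, 3293, 2390, 3562 and 839 CPM in A24, A25, A26, A29 and A31. The log2 fold change was −0.59 (SE 0.534, adjusted p = 0.627 by edgeR's quasi-likelihood test, Benjamini-Hochberg), and without A7 it was 0.22. *Acss2*, which makes acetyl-CoA from acetate, varied 4.92-fold among the controls and had −0.81 (SE 0.477). *Acaca*, the cytosolic acetyl-CoA carboxylase, had −0.67 (SE 0.391), and *Me1*, the malic enzyme that supplies NADPH, had −0.38 (SE 0.402). Without 1 library *Acss2* ran from −1.21 to −0.11 and *Acaca* from −0.94 to −0.08. Without A7, 3 of the 6 were lower and their median was 0.08, where it had been −0.54. Without A12 all 6 were lower with a median of −0.83, and 2 of them had an unadjusted p under 0.05. A7 was the highest library for 5 of the 6 genes, and A31 the lowest for 5.

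By TPM *Fasn* exceeded the rest of its list in each library, with 6304 ± 2922 TPM (SD, n = 3) in control and 6214 ± 1513 TPM (SD, n = 5) in the other group. *Acly* averaged 1020 TPM, *Me1* 641, *Acaca* 461, *Acacb* 290.3 and *Acss2* 186 over the 8 libraries, and neighbours in this order changed places between libraries. *Acaca* and *Acacb*, the carboxylase at the mitochondrial surface whose malonyl-CoA restrains fatty acid oxidation, share none of their 31-base words, so that their counts are separable. The share of *Acaca* in their sum was 66.2% ± 8.03 (SD, n = 3) in control and 58.0% ± 6.56 (SD, n = 5) in the other group. The groups overlapped, with a two-sided exact permutation p of 0.179 (adjusted over the 6 shares 0.357). It was lowest in A31, with 47.8%, and highest in A7, with 73.8%.

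Transcripts of several of these genes were divided differently in A8 and A24. A retained-intron transcript of *Acacb* that begins inside the gene, at 114199779 on chromosome 5, took 72.6% of the gene's count in A8 and 90.6% in A24, against 18.3% (A7) to 50.8% (A29) in the other 6. An *Acly* transcript with a downstream first exon (chr11:100523440-100523598) took 50.3% in A8 and 79.5% in A24, and at most 39.5% elsewhere. Another *Acly* transcript, of 4426 bases, was divided by label instead. Its share was 35.1% ± 3.74 (SD, n = 3) in control and 22.2% ± 2.64 (SD, n = 5) in the other group, without overlap. Its CPM overlapped, as did the shares of the other most counted *Acly* transcripts. This split was picked after its values were seen and was not tested. Retained-intron transcripts of *Fasn* took 24.9% in A8 and 29.5% in A24, and between 5.31% and 21% elsewhere. The same libraries, 1 of each label, also had the lowest slopes of expression on transcript length over 14796 genes, −0.15 in A8 and −0.24 in A24 on the log2 scale per log2 of length, where the others lay between −0.02 and 0.14. When each library's trend on length was removed, an alternative chosen after seeing the data, 25 of the 37 members were lower, with a median of −0.24, and *Scd1* was again the 1 member past the threshold.

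Among the 6 regulators 2 had log2 fold changes below 0 and none was past the threshold. *Insig1* encodes a sterol-sensing anchor of the SREBP complex and is itself a target of SREBPs. It lies at chr5:28071363-28078662 on the plus strand. It had 684, 477 and 548 CPM in A7, A8 and A12. The other label gave 474, 409, 201, 215 and 231 CPM in A24, A25, A26, A29 and A31. The groups did not overlap, but A24 came within 3 CPM of A8, and A24 and A25 lay closer to the controls than the other 3 libraries did. The log2 fold change was −0.90 (SE 0.303, adjusted p = 0.167 by edgeR's quasi-likelihood test, Benjamini-Hochberg).

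*Insig2*, the second anchor, had a log2 fold change of −0.07 (SE 0.153), which became 0.15 with total counts only. *Insig1* made up 95.6% ± 0.961 (SD, n = 3) of the summed counts of the pair in control and 91.9% ± 2.72 (SD, n = 5) in the other group, with overlap (two-sided exact permutation p = 0.107, adjusted over the 6 shares 0.321). By TPM *Insig1* led the regulators on average, with 222 TPM, followed by *Mlxipl* with 188 and *Srebf1* with 94.5. The order of *Insig1* and *Mlxipl* differed between libraries. *Insig2* with 18.9 TPM, *Scap* with 13.7 and *Srebf2* with 7.29 were below *Srebf1* in each library. *Scap*, the escort of SREBPs to the Golgi, had a log2 fold change of 0.26 (SE 0.168), and *Mlxipl*, which encodes the carbohydrate-responsive factor ChREBP, one of 0.51 (SE 0.322), which ran from 0.21 to 0.79 without 1 library.

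*Srebf1*, which encodes the SREBP that favours fatty acid genes, had 145, 263 and 125 CPM in A7, A8 and A12. It had 180.2, 248, 285, 236 and 204 CPM in A24, A25, A26, A29 and A31. A7 and A12 were the lowest of the 8 libraries and A8 lay among the other group, with a log2 fold change of 0.38 (SE 0.257, adjusted p = 0.502 by edgeR's quasi-likelihood test, Benjamini-Hochberg). Without 1 library it ran from 0.18 to 0.78. *Srebf2*, which encodes the SREBP that favours sterol genes, was nearly level, with 22.8, 24.3 and 28.0 CPM in A7, A8 and A12. It had 25.6, 29.5, 27.5, 23.9 and 28.8 CPM in A24, A25, A26, A29 and A31. The groups overlapped, with a log2 fold change of 0.11 (SE 0.138, adjusted p = 0.726 by edgeR's quasi-likelihood test, Benjamini-Hochberg).

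*Srebf1* is annotated with alternative first exons, on the minus strand of chromosome 11. The shares below are estimated counts of annotated transcripts, and starts of transcription were not measured. The first exon farthest upstream (chr11:60220453-60220604) took 40.4% ± 8.74 (SD, n = 3) of the gene's count in control and 42.7% ± 7.62 (SD, n = 5) in the other group. A middle first exon (chr11:60210336-60210465) took 19.4% ± 11 (SD, n = 3) and 18.5% ± 10.6 (SD, n = 5). A downstream first exon (chr11:60206838-60207188) took 34.3% ± 20.0 (SD, n = 3) and 34.2% ± 16.0 (SD, n = 5). None of the 3 shares differed beyond their spread (two-sided exact permutation p of 0.750, 0.929 and 0.964, each 0.964 after adjustment over the 6 shares). The downstream first exon was highest in A8, with 56.1%, and A24, with 59.4%, the libraries that stood out for *Acacb*, *Acly* and *Fasn*.

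Among the 17 genes of sterol synthesis and transport, 15 had a log2 fold change below 0, with a median of −0.30. With total counts only, where 27.8% of all genes tested were below 0, 10 of the 17 were. Without A7 13 were, with a median of −0.24. The exceptions with TMM were *Mvk*, mevalonate kinase, with 0.21 (SE 0.199), and *Fdft1*, which makes squalene, with 0.26 (SE 0.379). By edgeR's quasi-likelihood and likelihood ratio tests and by limma voom no sterol gene was past the threshold, and 1, *Lss*, was past it in DESeq2's Wald test, as were 823 of the 14851 genes tested. At an unadjusted p under 0.05 in the quasi-likelihood test there were 5 of the 17 (29.4%), against 17.0% of all genes tested. The count depended on the fit, from 0 with total counts only, 1 with the muscle score as a covariate and 2 without A7 to 6 without A12. The 5 genes act at separate points of the route. *Hmgcs1* makes HMG-CoA, *Idi1* interconverts the isoprenoid units, *Lss* closes squalene epoxide into lanosterol, and *Cyp51* and *Nsdhl* take methyl groups off lanosterol and its products. Their log2 fold changes lay between −0.88 (*Lss*) and −0.57 (*Cyp51*).

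*Lss* lies at chr10:76531588-76557138 on the plus strand. It had 88.7, 49.6 and 38.0 CPM in A7, A8 and A12. The other label gave 30.8, 37.6, 30.6, 37.9 and 22.9 CPM in A24, A25, A26, A29 and A31. The groups did not overlap, yet A12 barely exceeded A29, and A7 was high on its own. The log2 fold change was −0.88 (SE 0.265, adjusted p = 0.131 by edgeR's quasi-likelihood test, Benjamini-Hochberg), with an adjusted p of 0.0397 in DESeq2's Wald test, and it was −0.46 without A7.

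Divided by transcript type, the separation of *Lss* lay in 1 of its retained-intron transcripts, a division looked at after the values were seen and given without a test. Its protein-coding transcripts had 61.0, 18.3 and 20.3 CPM in A7, A8 and A12, and from 14.0 (A31) to 29.5 (A25) in the other group. A8 and A12 thus lay inside the range of the libraries labelled *Adipo-HuR-/-*. Its 5 retained-intron transcripts summed to 26.6, 31.3 and 17.8 CPM in A7, A8 and A12. They summed to 9.11, 7.64, 8.34, 14.0 and 8.87 CPM in A24, A25, A26, A29 and A31. Here the groups did not overlap, with means ± SD of 25.2 ± 6.87 CPM in control (n = 3) and 9.60 ± 2.54 in the other group (n = 5). In control most of it was 1 transcript of 6992 bases that reaches the 3′ end of the gene, with means ± SD of 20.5 ± 5.47 CPM in control and 3.92 ± 2.38 in the other group. The next in abundance, of 4871 bases, had 3.97 ± 1.64 and 4.40 ± 0.630 CPM, with overlap, and the share of all retained-intron transcripts in the gene's count overlapped as well (46.6% ± 16.5 and 30.6% ± 7.52). The share of the transcript of 6992 bases alone did not overlap (37.7% ± 12.9 and 12.3% ± 5.99). Represented by its protein-coding transcript with the highest count, *Lss* had a log2 fold change of −0.58 (adjusted p = 0.610 by edgeR's quasi-likelihood test, Benjamini-Hochberg). The annotation places an antisense gene, *4930483K19Rik* (chr10:76545871-76562226, minus strand), over the 3′ part of *Lss*. It has no value in the files, and the use of strand in the counting is not given, so that its RNA cannot be told apart from that of *Lss*.

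**Figure D3:**
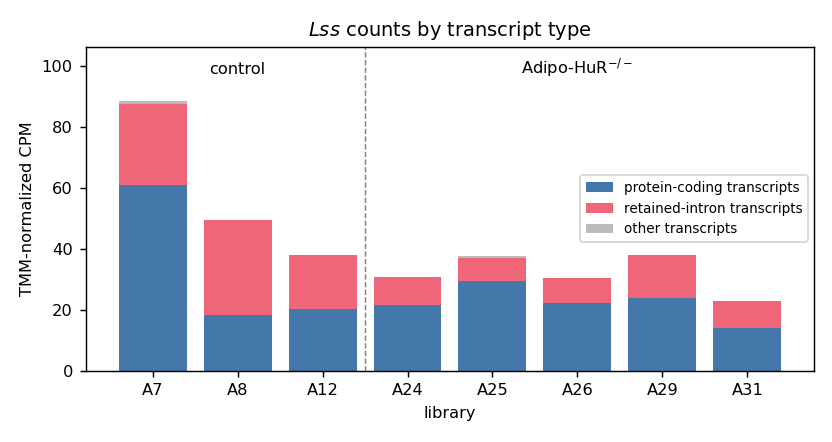
TMM-normalized CPM of *Lss* in each library, stacked by transcript type, with the 3 control libraries left of the dashed line and the 5 labelled *Adipo-HuR-/-* right of it. Retained-intron transcripts reach 17.8 to 31.3 CPM in control and 7.64 to 14.0 CPM in the other group, whereas the protein-coding transcripts overlap.

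*Hmgcs1* (chr13:119690379-119708260, plus strand) had its highest level in A12, unlike most sterol genes. It had 207, 183 and 292 CPM in A7, A8 and A12. The other label gave 196, 99.7, 126, 148 and 172 CPM in A24, A25, A26, A29 and A31. A24 lay above A8, so that the groups overlapped, with a log2 fold change of −0.61 (SE 0.237, adjusted p = 0.222 by edgeR's quasi-likelihood test, Benjamini-Hochberg). This value ran from −0.74 to −0.39 in the fits without 1 library. *Acat2*, the thiolase that starts the pathway and had the highest average per length of the sterol list, had 265, 222 and 131 CPM in A7, A8 and A12. It had 163, 165, 151, 159.7 and 102 CPM in A24, A25, A26, A29 and A31. A12 lay below 4 of the 5 libraries of the other label, and the log2 fold change was −0.47 (SE 0.241, adjusted p = 0.352 by edgeR's quasi-likelihood test, Benjamini-Hochberg). The fits without 1 library gave *Acat2* values from −0.72 to −0.25.

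The other 9 sterol members had log2 fold changes from −0.62 for *Hsd17b7*, a keto-reductase of sterol demethylation, to −0.08 for *Dhcr7*. *Mvd* (−0.38), *Pmvk* (−0.30) and *Fdps* (−0.17), which act between mevalonate and farnesyl diphosphate, were lower with TMM, and *Fdps* had 0.05 with total counts only. *Sqle* (−0.30), which oxidizes squalene, *Sc5d* (−0.18) and *Msmo1* (−0.09), which act after lanosterol, and *Dhcr7* (−0.08), which makes cholesterol itself, were also lower with TMM. Left-out libraries moved several of these values close to 0, with ranges of −0.70 to −0.09 for *Mvd*, −0.56 to −0.01 for *Pmvk* and −0.46 to −0.01 for *Sqle*. *Fdps*, *Msmo1* and *Dhcr7* changed sign in at least 1 of these fits. Of the genes after lanosterol, *Sc5d*, *Msmo1* and *Dhcr7* had values above 0 with total counts only, as did *Stard4*, a carrier of cholesterol in the cytosol (−0.21 with TMM). By TPM *Acat2* with 107, *Pmvk* with 96.4, *Fdps* with 81.7 and *Hmgcs1* with 75.4 led the list on average, in an order that differed between libraries. *Hsd17b7* with 3.60 TPM and *Stard4* with 2.05 were the lowest. *Fdft1* shares 774 bases with the 3′ end of *Ctsb* on the opposite strand, and *Mvd* lies inside *Gm20388* on the opposite strand, so that their counts depend on how strand was treated. The same limit applies to other members. *Acss2* shares 22544 bases of its span with *Gss* on the opposite strand. *Hmgcs1* shares 6190 bases with *Gm48342*, an antisense gene without a value. *Fdps* shares 7512 bases with *Gm43738* on the same strand.

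The libraries differed among themselves across roles. A7 was the highest library for 19 of the 37 members, 9 of them among the 17 sterol genes, and A31 the lowest for 13. The mean log2 CPM of the palmitate list was 12.01, 10.99 and 10.4 in A7, A8 and A12, and from 9.98 in A31 to 11.19 in A29 in the other group. For the sterol list it was 5.53, 5.41 and 4.96 in A7, A8 and A12, and from 4.68 in A31 to 5.27 in A29. In both lists A12 lay within the range of the libraries labelled *Adipo-HuR-/-*, and A29 was the highest of those and A31 the lowest. The difference between the group means was −0.42 for the palmitate list and −0.34 for the sterol list, and it was 0.02 and −0.22 without A7 but −0.78 and −0.51 without A12. With total counts only it was −0.18 and −0.10, and by the transcript with the highest count −0.77 and −0.36. For desaturation and elongation it was −0.07, and 0.02 without A7. For the regulators it was 0.05, and −0.01 without A12 or without both A24 and A25. With total counts only, desaturation and elongation had 0.16 and the regulators 0.29. With TMM both differences were within the spread between libraries, and the groups overlapped for each of the 4 lists. These means were described without a test.

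**Figure D4:**
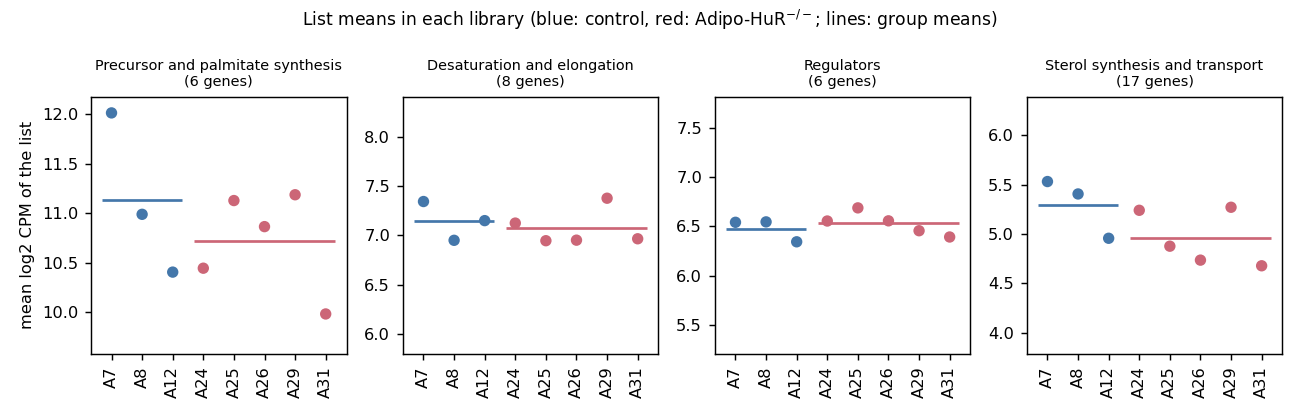
Mean log2 CPM of the members of each role list in each library, with lines at the means of control (blue, n = 3) and *Adipo-HuR-/-* (red, n = 5). The groups overlap in each of the 4 lists, and A7 is the highest library for the palmitate list (12.01) and the sterol list (5.53).

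Promoters were looked at because many of the members are known targets of SREBPs. RefSeq promoters of GRCm38.p6, each 300 bases around a transcription start, were at hand for 29 of the 37 members, with 40 entries, but not for *Scd1*, *Scd2*, *Elovl3*, *Fads1*, *Fdps*, *Fdft1*, *Sqle* and *Stard4*. The motif TCACNCCAC, a form of the sterol response element, was found on either strand in 2 of the 40 entries (5.0%), those of *Hmgcs1* and *Mlxipl*, and in 1.24% of all 32851 promoters. CCAAT, the letters of the NF-Y site, was in 62.5% of the member entries and 37.4% of all promoters. GGGCGG, the letters of the Sp1 site, was in 70.0% and 35.7%, and CACGTG, an E-box, in 20.0% and 7.15%. Of the 13 sterol genes with a promoter, 12 held CCAAT and 12 held GGGCGG. A match is a description of letters, not evidence of binding. The 4 promoters below belong to lower members with an unadjusted p under 0.05, and were picked after values were seen. They are *Hmgcs1* (chr13:119690101-119690400), *Insig1* (chr5:28071162-28071461), *Lss* (chr10:76531355-76531654) and *Nsdhl* (chrX:72918271-72918570), all on the plus strand and credited to RefSeq. Capitals mark these 4 motifs on either strand. On the other strand CCAAT reads as ATTGG, and GGGCGG reads as CCGCCC.
Hmgcs1: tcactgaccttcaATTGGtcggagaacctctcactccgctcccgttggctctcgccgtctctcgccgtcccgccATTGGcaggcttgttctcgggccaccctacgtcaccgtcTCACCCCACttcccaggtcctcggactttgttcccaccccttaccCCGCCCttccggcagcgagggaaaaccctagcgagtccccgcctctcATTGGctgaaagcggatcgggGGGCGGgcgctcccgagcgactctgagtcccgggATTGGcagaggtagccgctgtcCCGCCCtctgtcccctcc
Insig1: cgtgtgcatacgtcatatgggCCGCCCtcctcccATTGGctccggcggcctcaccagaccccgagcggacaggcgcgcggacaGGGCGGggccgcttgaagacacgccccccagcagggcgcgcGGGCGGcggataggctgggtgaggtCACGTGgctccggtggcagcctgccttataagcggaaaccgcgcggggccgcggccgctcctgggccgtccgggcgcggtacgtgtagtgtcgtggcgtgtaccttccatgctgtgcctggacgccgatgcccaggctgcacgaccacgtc
Lss: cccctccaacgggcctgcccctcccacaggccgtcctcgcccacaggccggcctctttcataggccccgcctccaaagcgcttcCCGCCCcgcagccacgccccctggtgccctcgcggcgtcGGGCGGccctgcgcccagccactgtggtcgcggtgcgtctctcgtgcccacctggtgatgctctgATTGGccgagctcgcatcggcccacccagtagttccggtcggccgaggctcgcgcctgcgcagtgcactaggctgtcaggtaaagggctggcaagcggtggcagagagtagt
Nsdhl: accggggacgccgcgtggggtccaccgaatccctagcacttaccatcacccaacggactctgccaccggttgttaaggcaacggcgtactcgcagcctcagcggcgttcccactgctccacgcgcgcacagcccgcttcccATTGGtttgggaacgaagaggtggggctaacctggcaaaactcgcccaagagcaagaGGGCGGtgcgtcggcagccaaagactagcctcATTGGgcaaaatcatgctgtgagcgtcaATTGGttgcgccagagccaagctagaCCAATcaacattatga
The *Hmgcs1* promoter holds 4 CCAAT, 3 GGGCGG and 1 TCACNCCAC, and the *Nsdhl* promoter holds 4 CCAAT and 1 GGGCGG. The *Insig1* promoter holds 1 CCAAT, 3 GGGCGG and 1 CACGTG, and the *Lss* promoter 1 CCAAT and 2 GGGCGG.

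Sequence outside promoters and places in the genome were looked at as well. HuR binds stretches rich in U and AU, and the letters ATTTA were in the annotated 3′ untranslated region of 27 of the 37 members (73.0%), with a median length of 1366 bases. Among the genes tested with such a region they were in 8728 of 13165 (66.3%), with a median length of 1004 bases, so that the members were near the background. *Scd1* holds 5 in 3464 bases and *Scd2* holds 6 in 3664 bases. *Hsd17b7* holds 14 and *Elovl6* 8, and *Fasn* holds 1. On chromosome 19 *Scd1* lies 87591 bases from *Scd2*, and *Fads1* lies 81142 bases from *Fads2*. *Acacb* and *Mvk* are 193508 bases apart on chromosome 5, and *Pmvk* and *Fdps* 352582 bases apart on chromosome 3.

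Further genes of the same pathways were compared in 4 lists that hold no member. None of the 23 tested genes around lipogenesis, 15 around elongation and desaturation, 31 around sterols and 16 of triglyceride synthesis was past the threshold by edgeR's quasi-likelihood test. At an unadjusted p under 0.05 there were 4 (17.4%), 3 (20.0%), 6 (19.4%) and 1 (6.25%), where 17.0% of all genes tested were. DESeq2's Wald test placed 1 lipogenesis gene and 2 elongation genes past the threshold, edgeR's likelihood ratio test placed 2 elongation genes past it, and limma voom placed none. Over all 14851 genes tested these tests placed 823, 655 and 157 past it. The 2 elongation genes were *Cyb5b* and *Cyb5r3*, which encode a cytochrome b5 and the reductase that feeds it electrons.

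*Cyb5b* had 544, 363 and 470.0 CPM in A7, A8 and A12. It had 304, 257, 245, 267 and 289 CPM in A24, A25, A26, A29 and A31. The groups did not overlap, with a log2 fold change of −0.75 (SE 0.170, adjusted p = 0.0744 by edgeR's quasi-likelihood test, Benjamini-Hochberg), and the adjusted p over the fits without 1 library ran from 0.0421 to 0.189. *Cyb5r3* had 204, 157 and 149 CPM in A7, A8 and A12. It had 94.8, 101, 72.5, 127 and 89.5 CPM in A24, A25, A26, A29 and A31. Each library labelled *Adipo-HuR-/-* was again below each control, with a log2 fold change of −0.81 (SE 0.194, adjusted p = 0.0818 by edgeR's quasi-likelihood test, Benjamini-Hochberg). The call of *Cyb5b* was made without A8, whereas *Cyb5r3* was not past the threshold in any of the 8 fits without 1 library. *Cyb5r3* was past it with the trend on length removed (−0.83, adjusted p = 0.0408), the fit chosen after seeing the data.

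In the lipogenesis list *G6pdx*, which supplies NADPH, had a log2 fold change of −0.78 (adjusted p = 0.141) and was the gene past the threshold in DESeq2's Wald test. *Nr1h2*, the sterol-sensing receptor LXRβ, had 0.43 (adjusted p = 0.201). It ran from 0.37 to 0.52 without 1 library, and from 0.045 to 0.68 over all alternatives. *Dhdds* (−0.48, adjusted p = 0.121), which uses isoprenoids, led the sterol list. *Agpat1* (0.50, adjusted p = 0.171) and *Gpat4* (−0.42, adjusted p = 0.479), acyltransferases, led the triglyceride list, all adjusted p-values being edgeR quasi-likelihood values after Benjamini-Hochberg adjustment. In the fits without 1 library *Gpat4* ran from −0.69 to −0.14 and *Agpat1* from 0.39 to 0.66, and *Agpat1* had 1.32 by its transcript with the highest count. *Thrsp*, a lipogenic gene with 844 CPM in A12 and 3460 in A8, had 0.23 (SE 0.440), *Gpam* 0.21 (SE 0.396) and *Dgat2* 0.21 (SE 0.293), all with overlapping groups.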

How the data were processed

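Poly(A) RNA of BAT from 8 mice was measured, 1 library per mouse. The authors mapped reads in CLC Genomics Workbench by the study's methods and deposited estimated counts per transcript (expected counts) without normalization. The program that wrote these estimated counts for 105129 transcripts is not stated. The transcripts of each gene were added up and the sums rounded (79.1% were within 0.02 of a whole number). Groups follow the labels, with 3 control and 5 *Adipo-HuR-/-* libraries, and no library was left out. Genes were kept by filterByExpr, normalized by TMM and tested by glmQLFit and glmQLFTest in edgeR 4.0.16 (R 4.3.3), with Benjamini-Hochberg adjustment over 14851 genes. The standard error is the size of the log2 fold change over the square root of F. List means are mean log2 CPM with a prior count of 2. TPM used the annotated transcript lengths. The genome build used for mapping is not given in the sources used here, and positions are those of the GENCODE annotation of GRCm38. Shares had a two-sided exact permutation test over 56 assignments of libraries, where the smallest p is 0.0357. Python 3.11.15, numpy 2.4.6, pandas 2.3.3 and matplotlib 3.10.9 were used for tables and figures, and the tests were tested on simulated data.

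Totals lay between 17558090 and 67498055 counts, and 3 counts corresponded to 0.0444 to 0.171 CPM by total counts alone, without the TMM factors. Alternatives were total counts or DESeq2 size factors as the scale, tests by edgeR's likelihood ratio, limma 3.58.1 voom with quality weights or DESeq2 1.42.0 Wald, a filter left off or set to 10 counts in each library, a muscle score as a covariate, A24 and A25 left out, the transcript with the highest count, and each library left out in turn. Removal of each library's trend on transcript length (loess, span 0.3) was chosen after seeing the data. The members and lists were chosen with earlier results of these data known. Values in every library are given for members past the threshold, members whose groups do not overlap, the member of each role list with the highest level per length, and *Srebf1*, *Srebf2*, *Fasn*, *Acly*, *Scd1* and *Hmgcs1*. Of the other pathway lists the 2 genes with the lowest p are named (1 for the sterol list), with *Thrsp*, *Gpam* and *Dgat2*. Other names follow a count or were chosen after their values were seen. Summed over each marker list, which an abundant gene can lead, other cell types had overlapping groups, with CPM of 59.8 ± 20.7 (SD, n = 3) and 55.1 ± 16.9 (SD, n = 5) for white adipocytes, 676 ± 91.2 and 699.6 ± 98.9 for vessels, 28.1 ± 14.6 and 24.1 ± 5.04 for macrophages and lymphocytes, 318 ± 153 and 205 ± 58.2 for fibroblasts, 49.6 ± 10.8 and 43.1 ± 4.62 for Schwann cells, and 941 ± 157 and 734 ± 307 for erythroid cells.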

Additional observations from a re-analysis of the deposited data

Results flagged for a closer look

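In the 5 libraries labelled *Adipo-HuR-/-*, 59 values were examined for a single library far from the others, and 2 stood apart by Dixon's criterion for 5 samples (critical value 0.71). Chance marks about 1 group in 20. *Elovl5*, an elongase of polyunsaturated chains, had 184 CPM in A24, where the other 4 libraries lay between 85.2 and 96.3 CPM. The gap to the nearest library was 0.888 of the whole range. *Acat2* had 102 CPM in A31, where the other 4 lay between 151 and 165 CPM, a gap of 0.781 of the range. Without A24 the log2 fold change of *Elovl5* was 0.0066, against 0.28 with all libraries. The cause of either value was not tested.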

How the results depend on the processing

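Of 528 log2 fold changes of 48 named genes under 11 alternatives, 503 kept direction and side of the threshold, and 34 genes had no change of sign in any fit. The cause of the exceptions was not tested. With total counts only, *Acacb* was 0.16, *Insig2* 0.15, *Fdps* 0.052, *Msmo1* 0.16, *Sc5d* 0.043, *Dhcr7* 0.13 and *Stard4* 0.012, and the difference in list mean was 0.16 for desaturation and elongation, 0.29 for the regulators and 0.0066 for all members (−0.23 with TMM). With the muscle score as a covariate, *Acly* was 0.062, *Me1* 0.0061, *Mvd* 0.075 and *Dhcr7* 0.18, 14 genes and 0 members were past the threshold (3 members at an unadjusted p under 0.05), and *Scd1* was −2.17 (adjusted p = 0.141). Without A24 and A25, *Acacb* was 0.084, *Thrsp* −0.021 and the *Srebf1* middle exon share differed by 3.07 percentage points, 5 genes and 0 members were past it, and *Scd1* was −2.05 (adjusted p = 0.147). By the transcript with the highest count, 16 genes and 0 members were past it, *Scd1* was −1.99 (adjusted p = 0.0507) and the mean of the 37 members in the libraries labelled *Adipo-HuR-/-* was 6.39. *Dhcr7* was 0.011 in limma voom and *Acacb* 0.074 with the length trend removed, a fit chosen after seeing the data in which 332 genes were past it. DESeq2's Wald test placed 823 genes and 2 members past it, and edgeR's likelihood ratio test 655 genes. With each library left out in turn, 10 to 190 genes and 0 to 1 members were past it, the members' median ran from −0.40 to −0.020 and *Scd1* from −2.22 to −1.78. Changes of sign arose for *Acly* (−1.001 to 0.22), *Acacb* (−0.23 to 0.18), *Me1* (−0.70 to 0.20), *Fads2* (−0.23 to 0.62), *Fdps* (−0.40 to 0.030), *Fdft1* (−0.075 to 0.69), *Msmo1* (−0.31 to 0.14), *Dhcr7* (−0.31 to 0.26), *Thrsp* (−0.15 to 0.79) and *Gpam* (−0.043 to 0.54), and in the difference in list mean of the palmitate list (0.024 without A7), of desaturation and elongation (0.023 without A7) and of the regulators (−0.014 without A12, −0.0087 without A24 and A25). They also arose in the *Srebf1* exon shares, upstream −2.40 to 6.16, middle −6.84 to 3.97 and downstream −8.75 to 10.9 percentage points. Adjusted p-values are edgeR quasi-likelihood values after Benjamini-Hochberg adjustment. Fits without a library have 20 to 35 assignments for the shares, which cannot reach 0.05. The floor by total counts alone was at most 0.171 CPM (A25). Counting error does not limit the members named, the lowest of which, *Fads2*, had 1.47 CPM or more with TMM.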
